A study of Mus musculus with 847 samples.

Results

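The 7 genes of the cyclin-dependent kinase inhibitor families, Cdkn1a, Cdkn1b, Cdkn1c, Cdkn2a, Cdkn2b, Cdkn2c and Cdkn2d, were taken by symbol from a table of 21076 genes. No cutoff on a measured value was used, but the choice was made with earlier results of these data known. All 7 had at least 1 read. The libraries were bulk mRNA-seq of homogenized tissue from 15 brain regions of 59 C57BL/6JN mice, 847 libraries in all, with 1 library per mouse and region. The mice carried no labelled allele or treatment and differed by age and sex: 5 females and 5 males at each of 3, 12, 15 and 18 months, 5 females and 6 males at 21 months, 5 males at 26 months and 3 males at 28 months. The question put to each gene was where in the brain its RNA was found and whether its level moved with age, from 3 to 28 months.

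These proteins bind cyclin-dependent kinases or their cyclins and hold cells back from entering S phase. The Cip/Kip proteins p21 (Cdkn1a), p27 (Cdkn1b) and p57 (Cdkn1c) bind complexes of several cyclins and kinases, whereas the INK4 proteins p16 (Cdkn2a), p15 (Cdkn2b), p18 (Cdkn2c) and p19 (Cdkn2d) bind CDK4 and CDK6 alone. Most cells of the adult brain do not divide, and p16 and p21 are widely used as markers of cellular senescence, while p27 and p57 are known for keeping neural and glial precursors out of the cycle.

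Depth per library was 6716032 reads at the median (lowest 481444, highest 26756735). Each region had 51 to 59 libraries, and 37 mice had all regions. Marker genes of the regions were highest in their own region for 5 of 5 to 6 of 6 genes in the caudate putamen, cerebellum, hypothalamus, thalamus, choroid plexus and medulla with pons, and for 4 of 5 in the olfactory bulb and hippocampus. This held for 0 of 5 myelin genes in the corpus callosum and for 3 of 5 genes each for cortex and subventricular zone. The overall profile of 13 libraries resembled another region most, for 8 the anterior hippocampus in place of the posterior. Beside these and 1 of the pons, they were the choroid plexus library of mouse 3, the corpus callosum library of mouse 15, the anterior hippocampus library of mouse 5 and the entorhinal cortex library of mouse 52. The last had a correlation of 0.938 with the medulla against 0.655 with its own region. The subventricular zone library of a male, mouse 3, held Xist at 113 CPM, and the posterior hippocampus library of a female, mouse 38, held Y-linked genes at 24.1 CPM. The olfactory bulb libraries of mice 43 and 47 and the motor cortex libraries of mice 22 and 30 differed from each other little beyond counting noise (chi-square per degree of freedom 1.04 and 1.10). The library of mouse 43 held only 901964 reads and was also close to the olfactory bulb libraries of mice 52 and 38 (1.09 and 1.10). Mice 43 and 47, and mice 22 and 30, carry different numbers, and each pair was kept as 2 libraries. Without 8 libraries, a choice made after seeing the data, 15 pairs of member and region were called for age, as with them. The 8 were the libraries of mice 3, 15, 5 and 52 that resembled another region and those at odds with their sex (mice 3 and 38). Added to these was 1 library of each close pair (mice 43 and 22).

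Levels are given as CPM, counts scaled to library size and composition, and compared between genes only per kilobase of exon. On that per-length scale, as a mean over the regions, Cdkn2d stood at 43.1 CPM per kilobase, Cdkn1a at 8.74, Cdkn1c at 7.08, Cdkn1b at 5.25, Cdkn2c at 0.931, Cdkn2b at 0.643 and Cdkn2a at 0.00377. The INK4 family thus held both the most and the least abundant of the 7 RNAs. Summed over all libraries, reads numbered 427344 for Cdkn2d, 183962 for Cdkn1a, 145597 for Cdkn1b, 92572 for Cdkn1c, 15382 for Cdkn2c, 5921 for Cdkn2b and 35 for Cdkn2a, so that counting noise was smallest for Cdkn2d and dominated Cdkn2a. In whole tissue, a lower level may come from fewer cells of a type or from less RNA per cell, and these data cannot tell them apart.

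The promoter windows of 5 transcripts are shown, those of Cdkn1a, Cdkn1b and Cdkn2c because these genes carried an age call and that of Cdkn2d for its highest and least varied level. Cdkn1c also carried age calls, but no promoter window of it was at hand, so it was not searched. The other Cdkn2c window, chr4:109665373-109665622 (minus strand), held no match. Each run holds the 250 bases before a RefSeq start site in GRCm38.p6, read 5′ to 3′ on the gene's strand. Capitals mark matches, on either strand, to GGGCGG (the GC box), to CCAAT (the CCAAT box) or to the glucocorticoid receptor half-site AGAACA. The windows lie at chr17:29090729-29090978 (plus strand) for the upstream start of Cdkn1a, chr17:29093519-29093768 (plus) for its downstream start, chr6:134920151-134920400 (plus) for Cdkn1b, chr4:109666757-109667006 (minus) for Cdkn2c and chr9:21291210-21291459 (minus) for Cdkn2d.
Cdkn1a, upstream start: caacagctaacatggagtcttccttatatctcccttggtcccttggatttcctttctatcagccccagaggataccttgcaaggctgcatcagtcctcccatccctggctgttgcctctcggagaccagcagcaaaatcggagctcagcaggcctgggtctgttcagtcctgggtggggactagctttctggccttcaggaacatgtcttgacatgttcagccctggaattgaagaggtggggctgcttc
Cdkn1a, downstream start: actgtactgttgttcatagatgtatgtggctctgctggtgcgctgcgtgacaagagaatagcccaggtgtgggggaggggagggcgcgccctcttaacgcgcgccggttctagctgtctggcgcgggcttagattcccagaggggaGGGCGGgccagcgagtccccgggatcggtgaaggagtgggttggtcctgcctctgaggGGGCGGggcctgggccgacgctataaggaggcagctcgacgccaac
Cdkn1b: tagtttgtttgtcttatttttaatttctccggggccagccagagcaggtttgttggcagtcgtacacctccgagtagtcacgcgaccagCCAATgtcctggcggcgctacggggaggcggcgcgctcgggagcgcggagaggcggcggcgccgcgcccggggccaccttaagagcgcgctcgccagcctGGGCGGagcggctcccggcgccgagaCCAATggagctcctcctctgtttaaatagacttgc
Cdkn2c: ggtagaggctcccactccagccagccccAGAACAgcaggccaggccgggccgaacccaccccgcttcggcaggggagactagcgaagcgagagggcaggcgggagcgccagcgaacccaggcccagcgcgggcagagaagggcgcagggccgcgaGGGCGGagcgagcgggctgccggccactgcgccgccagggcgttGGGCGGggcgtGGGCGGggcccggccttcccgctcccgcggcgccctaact
Cdkn2d: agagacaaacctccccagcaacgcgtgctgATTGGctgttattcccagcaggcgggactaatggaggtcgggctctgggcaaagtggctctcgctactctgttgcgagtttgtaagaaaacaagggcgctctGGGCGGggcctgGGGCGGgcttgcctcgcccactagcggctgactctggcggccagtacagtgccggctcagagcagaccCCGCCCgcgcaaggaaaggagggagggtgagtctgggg
The upstream Cdkn1a window held none of the 7 motifs searched, whereas the downstream one held 2 GC boxes, at -104 and -46 from the start. Cdkn1b held 1 GC box and 2 CCAAT boxes, Cdkn2c 3 GC boxes and 1 AGAACA, and Cdkn2d 3 GC boxes, 1 of them on the opposite strand, and a CCAAT box on the opposite strand. Over 32851 RefSeq windows of the same length, searched on both strands, GGGCGG was in 32.7%, CCAAT in 33.8% and AGAACA in 16.1%. TATAAA (12.4% of all windows), CACGTG (6.02%) and GTAAACA (3.17%) were in none of the 9 member windows, which cover all members but Cdkn1c. TGACG (17.8%) was in 1, that of Cdkn2b. Matches of different motifs did not overlap in these windows, and the Cdkn2b match read TGACG on both strands at overlapping letters. These are matches of letters and no evidence of binding.

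Across regions, Cdkn1a (ENSMUSG00000023067.14, chr17:29090976-29100727, GRCm38, plus strand) varied more than any other member in fold, apart from Cdkn2a, which had no reads in some regions. Its mean was 151 ± 16.4 CPM (SD, n = 58) in the olfactory bulb, 62.3 ± 18.8 (n = 56) in the visual cortex. Next came 37.9 ± 8.96 (n = 59) in the motor cortex and 28.0 ± 8.20 (n = 58) in the cerebellum. It then ran from 23.8 in the caudate putamen down through subventricular zone, corpus callosum, medulla, pons, entorhinal cortex, posterior hippocampus, hypothalamus, thalamus and choroid plexus to 10.8 ± 3.36 (n = 57) in the anterior hippocampus, 14.0-fold below the olfactory bulb. The olfactory bulb was apart from all other regions: its lowest library held 118 CPM, above the highest library of any other region, 111 CPM in the visual cortex. Of the 14 neighbours in the order, 5 differed within mice: olfactory bulb over visual cortex in 55 of 55 mice, visual over motor cortex in 52 of 56, motor cortex over cerebellum in 50 of 58, medulla over pons in 42 of 51 and cerebellum over caudate putamen in 36 of 57. The adjusted p was 0.0098 for the last and 9.8e-05 for the others, the smallest that this permutation test (100000 random sign flips, 2-sided, 98 neighbour pairs) can give here. The other 9 neighbours did not differ beyond their spread, among them the run from the caudate putamen to the medulla and that from the pons to the anterior hippocampus.

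Cdkn1b (ENSMUSG00000003031.14, chr6:134920401-134925513, plus strand) had its highest levels, 47.4 ± 3.76 CPM (SD, n = 58) in the cerebellum and 40.8 ± 4.13 (n = 58) in the olfactory bulb. From there it dropped to 25.3 in the thalamus and ended with 13.2 in the pons and 12.1 ± 1.97 (n = 58) in the medulla, a 3.93-fold range. Cerebellum exceeded olfactory bulb in 52 of 57 mice and olfactory bulb exceeded thalamus in 58 of 58 (both adjusted p = 9.8e-05, permutation test). In all, 6 of 14 neighbours differed, the last of them pons over medulla by 0.13 log2 units (34 of 51 mice, adjusted p = 0.0486, permutation test).

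Cdkn1c (ENSMUSG00000037664.13, chr7:143458339-143461050, minus strand) was led by the choroid plexus at 40.6 ± 15.9 CPM (SD, n = 57). It was ahead of the entorhinal cortex at 30.6 ± 16.2 (n = 51). The choroid plexus libraries also held markers of mature oligodendrocytes (median sum 12375 CPM) and neurons (5799 CPM), so this mean is that of mixed tissue. Their highest library held 96.0 CPM of Cdkn1c. The corpus callosum had 30.1 ± 34.0 (n = 57), but its libraries ran from 3.77 to 142 CPM with a median of 10.5, and in the subventricular zone the median was 8.60 against a mean of 23.3. The lowest mean, 4.71 ± 2.36 (n = 58), was in the posterior hippocampus, 8.62-fold below the choroid plexus. Choroid plexus exceeded entorhinal cortex in 37 of 50 mice (adjusted p = 4.52e-04, permutation test), and 4 of 14 neighbours differed in all. Part of its locus, 625 exon bases, is shared with the antisense gene Gm44732, and Cdkn1a shares 273 with AC167363.2 on the other strand; the libraries did not keep strand, so reads there cannot be assigned to either gene.

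**Figure D1:**
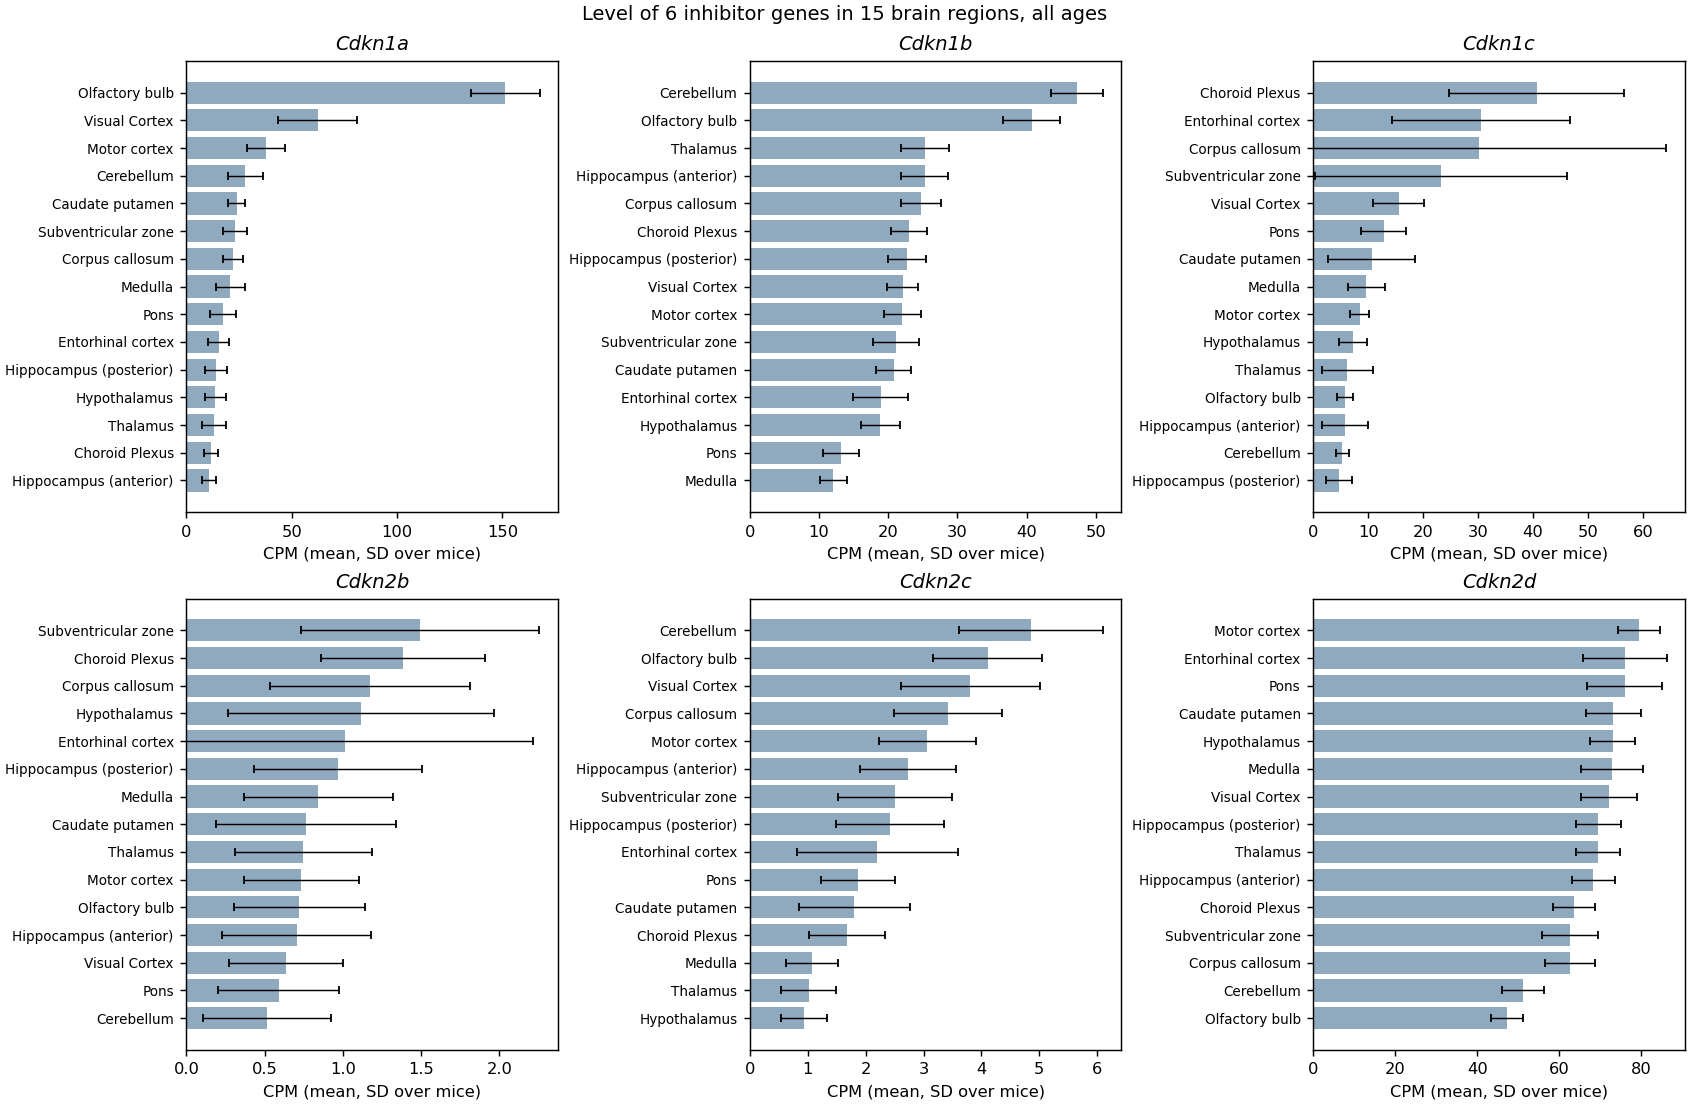
Level of each member but Cdkn2a by brain region, in CPM. Bars are means over the libraries of a region and thin lines are SD, cut at 0. Cdkn1a is highest in the olfactory bulb (151 CPM), Cdkn1b in the cerebellum (47.4 CPM), Cdkn1c in the choroid plexus (40.6 CPM) and Cdkn2d differs by no more than 1.68-fold between regions.

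Among the INK4 genes, Cdkn2d (ENSMUSG00000096472.2, chr9:21288410-21291407, minus strand) was high everywhere, from 79.5 ± 5.14 CPM (SD, n = 59) in the motor cortex to 47.3 ± 3.87 (n = 58) in the olfactory bulb, a 1.68-fold range. Its lowest neighbours were the clearest, with subventricular zone over cerebellum in 48 of 55 mice (adjusted p = 9.8e-05) and cerebellum over olfactory bulb in 43 of 57 (adjusted p = 3.27e-04, permutation tests). The olfactory bulb was thus the region with most Cdkn1a and least Cdkn2d. Cdkn2c (ENSMUSG00000028551.14, chr4:109660876-109667189, minus strand) was highest in the cerebellum, at 4.86 ± 1.25 CPM (n = 58), next in the olfactory bulb at 4.11 ± 0.939 (n = 58). It was lowest in the hypothalamus at 0.937 ± 0.397 (n = 55), a 5.19-fold range in which 2 of 14 neighbours differed. Cdkn2b (ENSMUSG00000073802.5, chr4:89306299-89311039, minus strand) ran from 1.49 ± 0.760 CPM (n = 55) in the subventricular zone to 0.515 ± 0.407 (n = 58) in the cerebellum, and 0 of 14 neighbours differed. It had a median of 6 reads per library.

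Cdkn2a (ENSMUSG00000044303.6, chr4:89274471-89294653, minus strand), whose locus gives both p16 and p19Arf transcripts that a count per gene does not separate, had 35 reads in 31 of 847 libraries, from 24 of 59 mice. The most reads in a region were 5, in each of the corpus callosum, entorhinal cortex and hypothalamus. No read was found in the posterior hippocampus, olfactory bulb, subventricular zone or thalamus, which allows, at 3 reads of each region's total, up to 0.00772, 0.00849, 0.00774 and 0.00729 CPM. By age, the pooled libraries held 1 read at 3 months (146 libraries), 5 at 12, 5 at 15, 8 at 18, 9 at 21, 4 at 26 and 3 at 28 months (44 libraries). This was 8.97e-04 CPM at 3 months and 0.00889 CPM at 28 months. Per mouse, the pooled level of Cdkn2a rose by 3.21e-04 CPM per month (p = 0.0185, permutation test with ages permuted within sex, 100000 resamples, 2-sided, n = 59 mice). With the choroid plexus libraries left out it rose by 3.07e-04 (p = 0.0217, permutation test). In the 34 males alone the slope was 2.07e-04 CPM per month and did not pass (p = 0.203, permutation test). The 3-month value rests on 1 read and is below the level of 3 reads, 0.00269 CPM, so no fold was formed.

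With age, the members moved in both directions and Cdkn1a moved in the most regions. A linear age slope in log2 units per month, with sex as a covariate, was fitted in each region with edgeR's quasi-likelihood test, and p-values were Benjamini-Hochberg adjusted over all genes of the region. Cdkn2a reached the minimum count in no region and Cdkn2b in 11, which left 86 pairs of member and region. Of these, 11 fell with age (12.8%), against 5.1% of 214677 pairs over all genes, and 4 rose (4.65%), against 6.37% of all pairs. The 11 were 9 for Cdkn1a and 2 for Cdkn1b, and the 4 were 3 for Cdkn1c and 1 for Cdkn2c. Cdkn2b and Cdkn2d gave 0 calls by edgeR's test and 0 by DESeq2, with an unadjusted edgeR p under 0.05 in 0 of 11 and 3 of 15 regions.

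**Figure D2:**
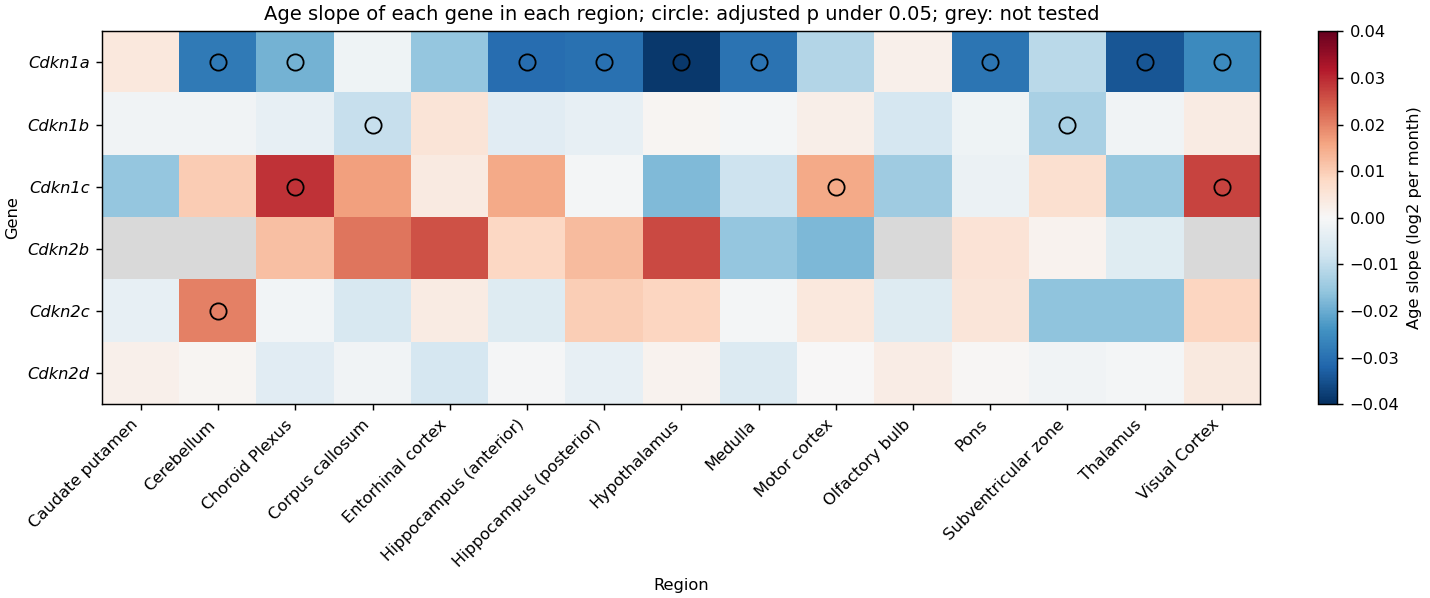
Age slope of 6 members (vertical) in 15 regions (horizontal), in log2 units per month by colour; circles mark adjusted p under 0.05 and grey marks pairs below the count minimum. Cdkn1a is marked as falling in 9 regions, with no mark in the olfactory bulb or the caudate putamen, and the marks of Cdkn1c and Cdkn2c are on rising slopes.

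Cdkn1a, which blocks CDK2 complexes and is a target gene of p53, fell in the hypothalamus, thalamus, anterior and posterior hippocampus, medulla, pons, cerebellum, visual cortex and choroid plexus. In the hypothalamus, where its slope was the steepest of the 9, the libraries held 12.5 to 25.6 CPM at 3 months (median 17.8, n = 9), 4.83 to 21.7 at 21 months (median 10.4, n = 11). The 28-month libraries held 8.83 and 8.87 CPM (n = 2). Both 28-month values lay below all 3-month values, while the 21-month range overlapped them. The slope was -0.0387 log2 units per month (SE 0.0074, edgeR adjusted p = 2.87e-04), or -0.97 log2 units over the 25 months. In the thalamus the 3-month libraries ran from 8.47 to 32.3 CPM (median 14.2) and the 28-month libraries from 5.50 to 9.30 (median 6.52), which overlapped at their ends, with a slope of -0.0343 (SE 0.0090, edgeR adjusted p = 0.0130). In the anterior hippocampus the 3 libraries of 28 months, at 5.98, 7.56 and 7.91 CPM, were at the low end of the 3-month range of 6.77 to 22.8, and the slope was -0.0306 (SE 0.0061, edgeR adjusted p = 3.41e-04).

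The visual cortex, second in Cdkn1a level, held 47.4 to 101 CPM at 3 months (median 73.8, n = 10) and 27.8, 35.2 and 43.9 CPM at 28 months, so that these ages did not overlap. At 26 months, however, its 4 libraries held 49.5 to 73.1 CPM, inside the 3-month range. Its slope was -0.0254 log2 units per month (SE 0.0068, edgeR adjusted p = 0.00878). In the medulla, 15.7 to 43.3 CPM at 3 months (median 22.3, n = 10) stood against 11.7, 13.6 and 13.8 CPM at 28 months, again without overlap, with a slope of -0.0296 (SE 0.0066, edgeR adjusted p = 9.74e-04). The pons, with 15.2 to 37.4 CPM at 3 months and 11.2, 11.3 and 13.5 at 28 months, had the same order and a slope of -0.0291 (SE 0.0073, edgeR adjusted p = 0.00683). The posterior hippocampus overlapped, with 8.11 to 30.7 CPM at 3 months and 9.29 to 11.1 at 28 months (slope -0.0300, SE 0.0080, edgeR adjusted p = 0.0128). So did 3 and 21 months in the cerebellum (slope -0.0282, SE 0.0055, edgeR adjusted p = 9.52e-05). The choroid plexus, where 28-month libraries at 8.37 to 9.13 CPM lay just below the 3-month range of 9.16 to 26.6, had the shallowest called slope, -0.0190 (SE 0.0060, edgeR adjusted p = 0.0198).

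The olfactory bulb, with by far the most Cdkn1a, showed no such fall: 122 to 156 CPM at 3 months (median 145), 128 to 200 at 26 months and 125 to 149 at 28 months (median 140) overlapped throughout, with a slope of 0.0022 log2 units per month (edgeR adjusted p = 0.633). The caudate putamen, at 18.0 to 31.0 CPM at 3 months and 22.4 to 27.4 at 28 months, had a slope of 0.0041 that was not called either. Motor cortex, subventricular zone, entorhinal cortex and corpus callosum had negative slopes from -0.0155 to -0.0018 that did not pass, so that the sign was negative in 13 of 15 regions. Whether slopes differ was tested in 1 fit of all libraries: for Cdkn1a the hypothesis of equal slopes in all regions gave F = 4.43 (edgeR adjusted p = 3.56e-06). With each mouse as a replicate block it gave F = 6.42 (edgeR adjusted p = 2.45e-10). Of all genes, 22.7% of 15069 passed this test, and 1 of 6 members did. Against the mean slope of the other 14 regions, the olfactory bulb was higher by 0.0243 log2 units per month (SE 0.0058, edgeR adjusted p = 0.00247). Over all members this was 1 of 90 pairs above the other regions, against 1.02% of 226035 pairs of all genes, and 0 of 90 below them by edgeR's test (7 at an unadjusted p under 0.05), against 0.979%. The caudate putamen (0.0254, adjusted p = 0.0758) and hypothalamus (-0.0204, adjusted p = 0.374) did not pass by edgeR's test. With each mouse as a replicate block, a fit added after seeing the data that uses the pairing of libraries by mouse, 4 pairs were above the other regions, against 1.07% of pairs over all genes, and 0 of 90 below them by edgeR's test (9 at an unadjusted p under 0.05), against 1.05%. For Cdkn1a these were the olfactory bulb (0.0232, edgeR adjusted p = 9.16e-05), the caudate putamen (0.0240, SE 0.0057, edgeR adjusted p = 0.0130) and the corpus callosum (0.0194, SE 0.0053, edgeR adjusted p = 0.0233, against 0.118 without the block). The hypothalamus did not pass with the block either (-0.0207, edgeR adjusted p = 0.136).

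When each later age was set against 3 months, all contrasts sharing the 3-month libraries, 21 of 516 combinations of member, region and age were lower (4.07%), against 1.64% of 1288062 combinations of all genes, and 8 were higher (1.55%), against 2.29%. Cdkn1a gave 13 of the 21: 0 of 15 regions at 12 and at 15 months, 2 at 18, 4 at 21, 1 at 26 and 6 at 28 months. The lowest were the thalamus at -1.41 log2 units (SE 0.36, edgeR adjusted p = 0.0358), anterior hippocampus at -1.13 (SE 0.24, edgeR adjusted p = 0.00184), hypothalamus at -1.12, medulla at -1.11 and visual cortex at -1.07, all at 28 months. With 3 mice or fewer at 28 months, single mice mattered: the hypothalamus call was lost without mouse 57 or 58. The thalamus call was lost when any one of mice 25, 29, 33, 57, 58 and 59 was left out, that of the visual cortex without mouse 57 or 59 and that of the anterior hippocampus without mouse 57. The call in the medulla stood whichever 3-month or 28-month mouse was left out. In males alone Cdkn1a was lower in 25 combinations in place of 13. The other members then had fewer: Cdkn1c was higher in 2 in place of 5 and lower in 0 in place of 2, and Cdkn1b lower in 3 in place of 5. Cdkn2b and Cdkn2c were higher in 0, in place of 1 and 2, and Cdkn2d lower in 0 in place of 1, by edgeR's test.

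The fall of Cdkn1a differed between the sexes over the mice and in 2 regions, the cerebellum and the anterior hippocampus. At 3 months, hypothalamic Cdkn1a was 21.2 to 25.6 CPM in males (median 22.0, n = 4) and 12.5 to 17.8 in females (median 14.9, n = 5), without overlap. At 21 months it was 4.83 to 10.4 CPM in males (median 8.02) and 12.1 to 21.7 in females (median 15.0), without overlap in the opposite order. The difference of slopes between the sexes in the hypothalamus did not pass, however (-0.0610 log2 units per month, edgeR adjusted p = 0.141). In the cerebellum, males went from a median of 45.4 CPM at 3 months (29.7 to 49.3) to 19.9 at 21 months (17.5 to 22.3) and 21.5 at 28 months, and females from 29.1 (25.8 to 38.7) to 27.1 (21.4 to 39.9). The anterior hippocampus had the same order, with males at a median of 17.7 CPM (13.1 to 22.8) at 3 months and 9.45 (7.45 to 10.6) at 21 months, and females at 8.14 (6.77 to 14.1) and 11.5 (8.76 to 16.3). In both regions the male values of 3 and 21 months did not overlap and the female values did.

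**Figure D3:**
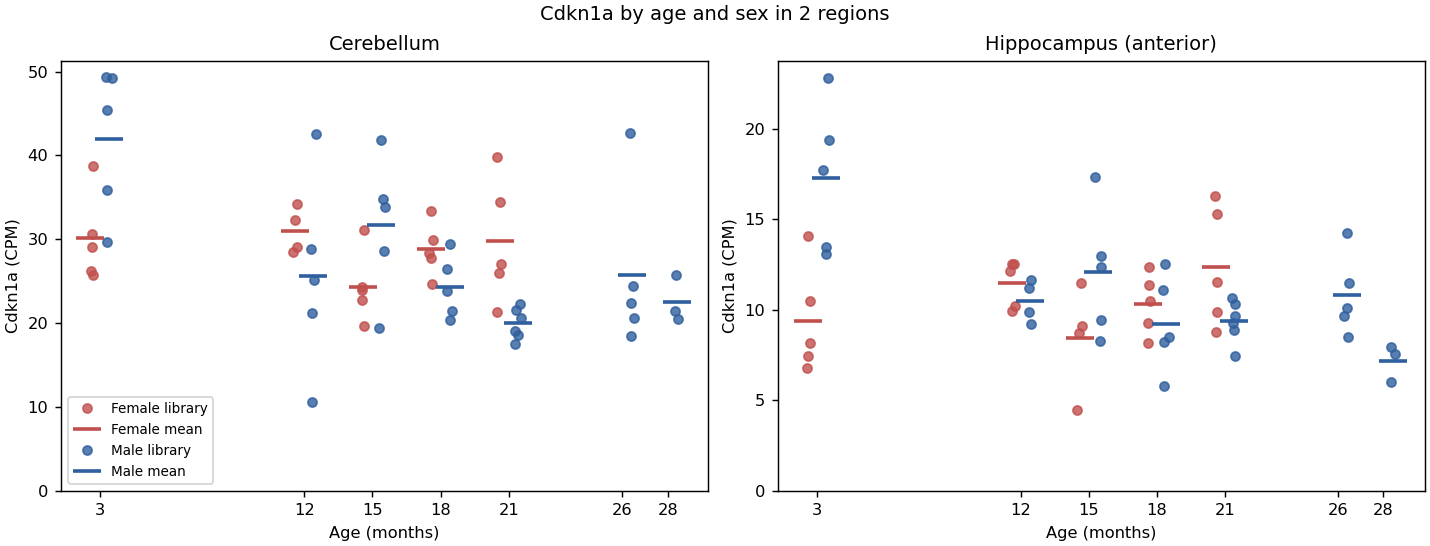
Cdkn1a in CPM (vertical) by age in months (horizontal) in the cerebellum and the anterior hippocampus; each point is 1 mouse, red for females and blue for males, and bars are group means. Males of 3 months lie high (medians 45.4 and 17.7 CPM) and males of 21 months low (19.9 and 9.45 CPM), whereas females of these ages overlap.

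Up to 21 months, where both sexes were sampled, the age slope of Cdkn1a was more negative in males in all 15 regions, with differences from -0.0665 (thalamus) to -0.0109 (olfactory bulb) log2 units per month. The difference passed in the cerebellum (-0.0540, SE 0.0123, edgeR adjusted p = 0.0132) and the anterior hippocampus (-0.0646, SE 0.0132, edgeR adjusted p = 0.0350). These were the only 2 of 83 pairs of member and region with a lower slope in males, against 0.0623% of 211769 pairs of all genes, and 0 were higher by edgeR's test (1 at an unadjusted p under 0.05), against 0.00708%. The cerebellum call was lost without mouse 25 (adjusted p = 0.0806) or 33 (adjusted p = 0.0547), both 3-month males, by edgeR's test. That in the anterior hippocampus was lost when any one of 10 mice (17, 25, 33, 37, 41, 44, 45, 48, 49 and 56) was left out.

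Fitted to females alone, a choice made after seeing the data, 0 of 15 regions were called for Cdkn1a by edgeR's test, with an unadjusted p under 0.05 in 2. The slope turned positive in the cerebellum (2.95e-04), choroid plexus (0.00571), anterior hippocampus (0.00734), medulla (0.00221) and thalamus (0.00629 log2 units per month). Females alone ended at 21 months and numbered 25 mice, so fewer libraries entered each fit. In males of 3 to 21 months alone, also chosen after seeing the data, all 9 called regions kept their calls by edgeR's test. In males alone, slopes of the 9 called regions ran from -0.0547 (thalamus) to -0.0302 (choroid plexus), and 8 passed; the posterior hippocampus, at -0.0344, did not (edgeR adjusted p = 0.0684). Without the 3-month mice, likewise chosen after seeing the data, slopes in the 9 regions were negative, from -0.0345 to -0.00314, and 0 passed by edgeR's test, with an unadjusted p under 0.05 in 4 of 15 regions. Leaving out single 3-month males also ended calls: the choroid plexus (-0.0119, adjusted p = 0.0994), pons (adjusted p = 0.0578) and thalamus (adjusted p = 0.0641) without mouse 25, by edgeR's test. The posterior hippocampus was lost without mouse 17 (edgeR adjusted p = 0.0547) or 33 (0.0573), the pons without mouse 17 (0.0599) and the thalamus without mouse 33 (0.0603). Without the 26- and 28-month mice the choroid plexus (-0.0195, edgeR adjusted p = 0.0511) and thalamus (-0.0278, edgeR adjusted p = 0.174) did not pass. Among mice 16 to 56 alone the choroid plexus (-0.0203, edgeR adjusted p = 0.0691), pons (-0.0287, edgeR adjusted p = 0.0670) and thalamus (-0.0281, edgeR adjusted p = 0.202) did not.

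With the mouse as the unit, each mouse's Cdkn1a was averaged over its regions as log2 CPM relative to the region mean. Males of 3 months stood at 0.137, 0.617 and 0.663 (lowest, median, highest of 5), males of 21 months at -0.406, -0.321 and -0.192 (6 mice) and males of 28 months at -0.477, -0.442 and -0.223 (3 mice). Females of 3 months stood at -0.125, 0.066 and 0.145 and females of 21 months at -0.067, 0.068 and 0.482 (5 mice each). All males of 3 months were above the mean and all of 21 and 28 months below it, but males of 26 months spread from -0.473 to 0.368. The slope over 59 mice was -0.0189 log2 units per month (SE 0.0043, limma adjusted p = 2.52e-04), in males alone -0.0282 (limma adjusted p = 5.62e-05) and in females alone 7.61e-04 (limma adjusted p = 0.943). Without the 3-month mice it was -0.0142 (limma adjusted p = 0.0976), and on counts summed over the 37 mice with all regions, where the regions with most Cdkn1a weigh most, -0.0102 (adjusted p = 0.305), so neither passed. The difference of slopes between the sexes up to 21 months was -0.0413 (SE 0.0087, limma adjusted p = 0.00523), a term added after seeing the data that 1.86% of all genes passed in this direction. Ages of 12 and 26 months carry mouse numbers 1 to 15 and 28 months 57 to 59. Among mice 16 to 56 alone the difference was -0.0443 (limma adjusted p = 0.00198). In that subset, however, every male has a lower mouse number than every female. A difference of slopes between the sexes there cannot be told apart from one between blocks of mouse numbers.

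**Figure D4:**
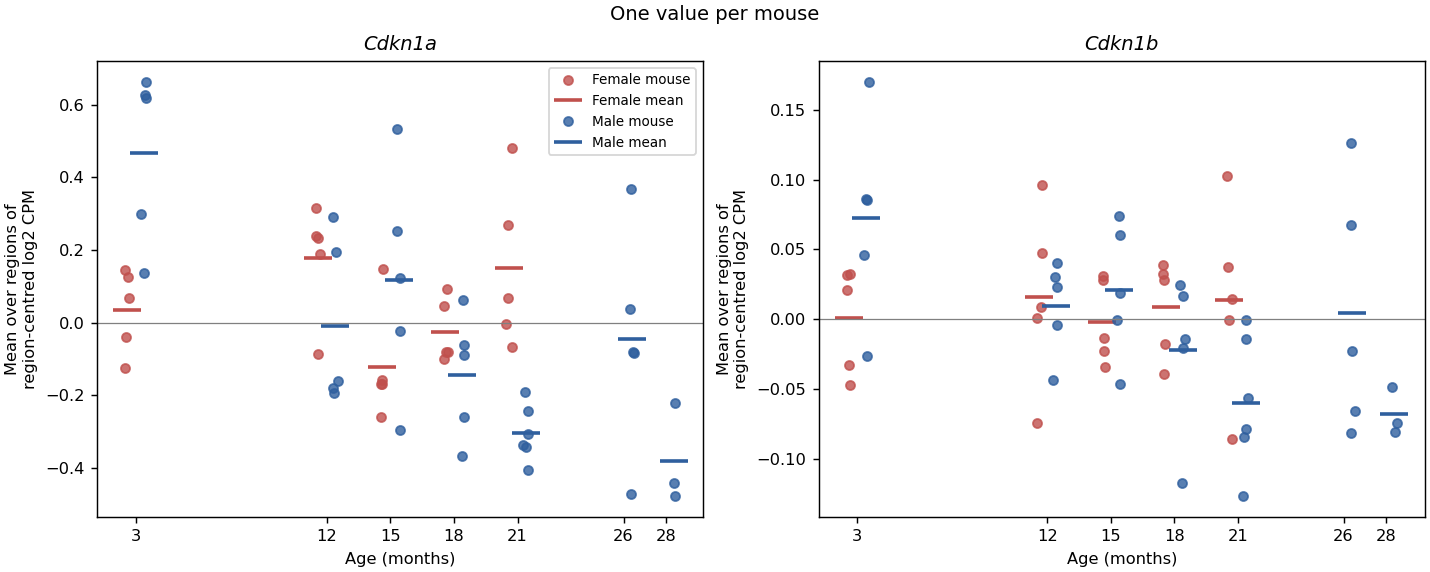
Cdkn1a and Cdkn1b per mouse (vertical), as the mean over a mouse's regions of log2 CPM relative to the region mean, by age in months (horizontal) and sex; each point is 1 mouse. For Cdkn1a all 5 males of 3 months are above 0 and all males of 21 and 28 months below 0, and Cdkn1b spans a much narrower range.

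Cdkn1a was also a gene that varied from mouse to mouse across the whole brain. After removal of region, sex and age, 28.3% of its remaining variance lay between mice, against a median of 1.44% and a 90th percentile of 5.26% over 11954 genes, of which 61 had a higher share. The shares were 6.72% for Cdkn1c, 2.63% for Cdkn2d and 1.03% for Cdkn1b. The 5 genes with the most similar pattern over 847 libraries, region, sex and age removed, were Xbp1 (r = 0.42), a transcription factor of the unfolded protein response, Nfkbia (0.41), Sgk1 (0.41), Hspb1 (0.38) and Hsp90b1 (0.36). Nfkbia encodes an inhibitor of NF-kappaB, Sgk1 a kinase induced by glucocorticoids, Hspb1 a small heat shock protein and Hsp90b1 a chaperone of the endoplasmic reticulum. These libraries share mice, and the correlation of Cdkn1a with the log of the library total was 0.04 over all of them. Within regions it ran from -0.35 in the thalamus (n = 59) to 0.34 in the visual cortex (n = 56) and 0.41 in the subventricular zone (n = 55). With the log of the library total as a covariate the 9 slopes ran from -0.0380 (hypothalamus) to -0.0186 (choroid plexus), and all 9 calls stood by edgeR's test.

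Markers of cell types moved with Cdkn1a in some of the 9 regions. In the visual cortex, markers of pericytes and vascular muscle had r = 0.48 with Cdkn1a (n = 56), and 3 of 8 (Acta2, Myh11, Tagln) fell with age. Their sum was 105 to 168 CPM at 3 months and 111 to 117 at 28 months. In the thalamus the same list had r = 0.44 (n = 59) with 0 of 8 called by edgeR's test, and in the cerebellum r = -0.43 (n = 58), also with 0 of 8. In the posterior hippocampus the neuroblasts list had r = 0.56 (n = 58), with 1 of 6 (Sox11) falling and sums of 331 to 642 CPM at 3 months and 356 to 443 at 28 months. The microglia list there had r = -0.49, with 6 of 7 rising and sums of 285 to 398 and 437 to 578 CPM. Meningeal fibroblasts there had r = 0.52, with 1 of 8 (Lum) rising, and mature oligodendrocytes r = 0.51, with 0 of 8 called by edgeR's test. In the hypothalamus (n = 55) the astrocytes list had r = -0.45, with 1 of 7 (Gfap) rising, and the microglia list r = -0.38, with 6 of 7 rising. In the choroid plexus (n = 57) meningeal fibroblasts had r = -0.44, with 1 of 8 (Col1a1) falling, neurons r = -0.41, with 1 of 7 (Rbfox3) falling, and oligodendrocyte precursors r = 0.43, with 0 of 5 called by edgeR's test. In the pons the highest was r = 0.37, for blood (n = 51). In the anterior hippocampus, all lists stayed within 0.28 of 0 and in the medulla within 0.27. Their part in the slopes was not tested.

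A sex difference of Cdkn1a across ages was called in the motor cortex alone. There females and males had similar values at 3 months (43.3 ± 9.68 and 43.9 ± 8.45 CPM, SD, n = 5 each). At 15 months they parted (48.3 ± 8.46 and 33.1 ± 6.37, n = 5 each), and values overlapped at both ages. Over 51 mice males were lower by -0.32 log2 units (SE 0.074, edgeR adjusted p = 0.00735), a call kept whichever mouse was left out. Outside 12 months, the males of this fit carry mouse numbers 16 to 36 and the females 37 to 56. At 12 months, where the numbers of the sexes alternate, the difference was -0.20 log2 units (edgeR adjusted p = 0.915). It was the only 1 of 83 pairs lower in males (1.2%), against 1.63% of pairs over all genes, and 2 were higher in males (2.41%), against 1.38%. Both of these were Cdkn2d: in the anterior hippocampus (median at 3 months 69.4 CPM in males and 62.8 in females; 0.11 log2 units, SE 0.027, edgeR adjusted p = 0.0364) and the medulla (78.7 and 76.0 CPM; 0.11, SE 0.038, edgeR adjusted p = 0.0354). The Cdkn2d values overlapped, and the calls were lost when any one of 12 of 49 mice (anterior hippocampus: 7, 20, 26, 33, 34, 35, 40, 43, 45, 46, 55 and 56) or of 11 of 50 (medulla: 3, 10, 18, 19, 20, 24, 46, 48, 50, 55 and 56) was left out.

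Cdkn1b, which slows cell cycle entry of precursors and is degraded through Skp2, fell with age in the corpus callosum and the subventricular zone, regions that border the lateral ventricles. In the corpus callosum it went from 23.1 to 34.3 CPM at 3 months (median 27.3) to 18.7 to 22.9 at 28 months (median 22.1), without overlap. At 26 months, however, the 4 libraries there held 22.4 to 28.9 CPM (median 25.6) and overlapped the 3-month range. The slope was -0.0093 log2 units per month (SE 0.0027, edgeR adjusted p = 0.0105). In the subventricular zone, 18.7 to 29.7 CPM at 3 months (median 26.2) overlapped with 16.9 to 23.5 at 21 months (median 19.8), with a slope of -0.0130 (SE 0.0032, edgeR adjusted p = 0.00483). Set against 3 months, 5 of 90 combinations were lower. These were the corpus callosum at 18, 21 and 28 months (-0.22, -0.19 and -0.36 log2 units), the subventricular zone at 21 months (-0.31, SE 0.075, edgeR adjusted p = 0.0119) and the olfactory bulb at 21 months (-0.19). The subventricular zone call at 21 months stood whichever 3-month mouse was left out. Those of the corpus callosum were lost without mouse 21 or 29 at 18 months, without any one of 10 mice at 21 months and without mouse 57 at 28 months, and that of the olfactory bulb without mouse 25, 41 or 49. In males alone the subventricular zone slope stood (-0.0134, adjusted p = 0.0269) and the corpus callosum one did not (-0.0106, adjusted p = 0.0741), and neither stood in females alone, by edgeR's test. Without 3-month mice, a choice made after seeing the data, the slopes were -0.00333 in the corpus callosum (edgeR adjusted p = 0.737) and -0.00255 in the subventricular zone (edgeR adjusted p = 0.841).

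In the subventricular zone 2 of 6 markers of neuroblasts (Sox11, Tubb3) fell, and in the corpus callosum 3 of 6 (Dcx, Dlx2, Sox11). Sums of the neuroblasts list in the subventricular zone were 618 to 723 CPM at 3 months and 536 to 572 at 28 months. In the corpus callosum they were 392 to 494 and 342 to 385. The microglia list rose in both, with 7 of 7 and 6 of 7 genes. Cdkn1b had r of at most 0.15 in size with every list in the corpus callosum, and in the subventricular zone its highest were 0.40 for T cells and 0.37 for newly formed oligodendrocytes (n = 55). The T cells list summed to only 0 to 4.94 CPM there (median 1.61), near the limit of counting. The r of Cdkn1b with the log of the library total was 0.48 in the subventricular zone and 0.22 in the corpus callosum. With that total as a covariate the slopes were -0.0129 and -0.0093, and both calls stood by edgeR's test. Over the mice, Cdkn1b fell by 0.0029 log2 units per month (SE 0.0011, limma adjusted p = 0.0195). The call was lost without mouse 17 (-0.0022, adjusted p = 0.0783), with library totals in place of composition scaling (-0.00226, adjusted p = 0.0834) and without 3-month mice (-0.00263, adjusted p = 0.245), by limma. On counts summed over the mice with all regions it was -0.00287 and did not pass (adjusted p = 0.234). With Cdkn1a it made 2 of 6 members lower over the mice (33.3%), against 25.7% of 15336 genes, and 0 were higher by limma, against 21.2%. Its most similar genes over 847 libraries were Wnk1 (r = 0.39), a kinase, Msi2 (0.35), an RNA-binding protein of precursors, AY036118 (0.35), Ptpn11 (0.34), a phosphatase, and Rrbp1 (0.34), a ribosome-binding protein.

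Cdkn1c, an imprinted gene expressed from the maternal copy, rose in the choroid plexus, visual cortex and motor cortex. In the visual cortex it went from 8.37 to 16.3 CPM at 3 months (median 11.4) to 16.5 to 29.8 at 26 months (median 23.4) and 15.4 to 22.9 at 28 months (median 17.9). The values of 26 months were above all of 3 months, and those of 28 months overlapped them only at their low end. The slope was 0.0271 log2 units per month (SE 0.0056, edgeR adjusted p = 6.61e-04), and 4 later ages passed, the highest 26 months with 0.93 log2 units (SE 0.15, edgeR adjusted p = 3.08e-05). The 28-month call, at 0.60, was lost without mouse 33 (adjusted p = 0.0601) or 59 (0.37, adjusted p = 0.43), by edgeR's test. That of 12 months was lost without mouse 33 or 37, and that of 21 months without mouse 25, 33 or 53. In the motor cortex the change was small, from 5.98 to 8.83 CPM (median 7.74) at 3 months to 8.22 to 10.4 (median 9.60) at 28 months, with overlap and a slope of 0.0153 (SE 0.0049, edgeR adjusted p = 0.0234). The motor cortex call was lost in males alone (0.0093, adjusted p = 0.298), in females alone (0.0280, adjusted p = 0.0798) and without 3-month mice (0.0173, adjusted p = 0.306), by edgeR's test. That of the visual cortex was lost in females alone (0.0178, adjusted p = 0.405) and without 3-month mice (0.0212, adjusted p = 0.273), by edgeR's test.

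In the choroid plexus, Cdkn1c held 17.0 to 44.9 CPM at 3 months (median 29.3), 28.6 to 96.0 at 21 months (median 49.7), 18.6 to 46.1 at 26 months (median 29.8) and 48.6, 51.9 and 58.7 at 28 months. The order of ages was thus uneven, with 26 months level with 3 months and 28 months above all 3-month values. The slope was 0.0289 log2 units per month (SE 0.0098, edgeR adjusted p = 0.0292). It did not pass without mouse 17, 33 or 41 (0.0262 to 0.0268, adjusted p = 0.0599 to 0.0657), in males alone (0.0290, adjusted p = 0.222), in females alone (0.0291, adjusted p = 0.138) or without 3-month mice (0.0145, adjusted p = 0.601), by edgeR's test. In the olfactory bulb, at far lower levels, Cdkn1c was lower at 12 months (3.61 to 7.03 CPM) and 15 months (3.72 to 6.86) than at 3 months (3.96 to 10.9). The differences were -0.43 and -0.54 log2 units (edgeR adjusted p = 0.0283 and 0.0129), but its slope was not called there. The 12-month call was lost without mouse 29, 41 or 49 and the 15-month call without mouse 29. Equal slopes of Cdkn1c in all regions could not be rejected (F = 1.04, edgeR adjusted p = 0.564), so its 3 regions were not shown to differ from the rest.

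Cdkn1c followed the markers of choroid plexus epithelium, the cells that make cerebrospinal fluid, in some regions and not in others. Across libraries of a region, the correlation of its log2 level with the mean of the 10 markers was 0.95 in the corpus callosum (n = 57) and subventricular zone (n = 55), 0.93 in the choroid plexus (n = 57), 0.84 in the caudate putamen (n = 58) and 0.82 in the thalamus (n = 59). It was 0.31 in the medulla (n = 58), where the summed markers ran from 425 to 3248 CPM, and 0.0043 in the entorhinal cortex (n = 51), -0.0074 in the visual cortex (n = 56) and -0.011 in the cerebellum (n = 58). In the choroid plexus Cdkn1c also had r = 0.87 with the ependymal cells list, so the relation there was not to the epithelium list alone. The 5 genes most similar to Cdkn1c over all 847 libraries were Kcnj13 (r = 0.80), Pcolce (0.79), Mfrp (0.78), Col8a1 (0.77) and Kcne2 (0.77). Kcnj13 and Kcne2 are potassium channel genes among the 10 markers. The summed choroid plexus epithelium markers in choroid plexus libraries ran from 1015 to 18461 CPM (median 9150). At 3 months they ran from 3226 to 11130 and at 28 months from 8104 to 13264, while 0 of 10 of them were called for age there by edgeR's test. The part of the epithelium in the rise of Cdkn1c there was not tested.

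**Figure D5:**
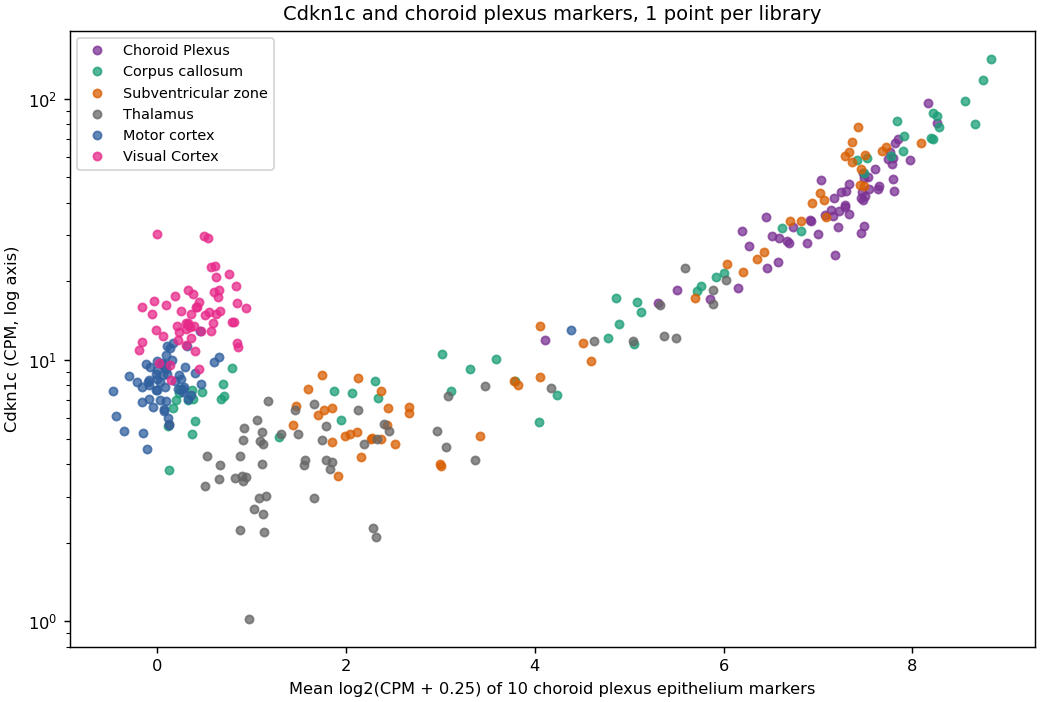
Cdkn1c in CPM (vertical, log axis) against the mean log2(CPM + 0.25) of 10 choroid plexus markers (horizontal), 1 point per library, in 6 regions. The points rise together in the corpus callosum and subventricular zone (r = 0.95 in each) and the choroid plexus (r = 0.93), and show no slope in the visual cortex (r = -0.0074).

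In the visual cortex the choroid plexus epithelium markers were low and steady, with sums of 255 to 328 CPM at 3 months and 242 to 282 at 28 months. Median Ttr was 0 CPM and median Kl 2.05 CPM there, so the sums came mostly from other genes of the list. The list may therefore not follow the epithelium in this region. Of its genes, 0 of 5 tested were called there by edgeR's test. With the marker mean as a covariate, the slope of Cdkn1c was 0.0259 there (edgeR adjusted p = 0.00114) and 0.0168 in the motor cortex (edgeR adjusted p = 0.00533), so both calls stood. In the visual cortex Cdkn1c instead had r = 0.53 with meningeal fibroblasts and -0.59 with mature oligodendrocytes (n = 56). Of the meningeal fibroblasts list 0 of 8 genes were called for age there by edgeR's test, with sums of 83.1 to 194 CPM at 3 months and 89.3 to 221 at 28 months; of the mature oligodendrocytes list Cldn11 alone fell. All 5 of 5 blood genes rose in the visual cortex. Their part in the rise was not tested.

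Cdkn2c, which binds CDK4 and CDK6 and is known from cerebellar granule precursors, rose in the cerebellum, the region of its highest level. It held 3.51 to 5.44 CPM at 3 months (median 4.24), 4.71 to 7.85 at 21 months (median 5.58), 4.32 to 10.0 at 26 months (median 5.78) and 3.92 to 6.61 at 28 months (median 5.77). All later ranges overlapped that of 3 months. The slope was 0.0202 log2 units per month (SE 0.0046, edgeR adjusted p = 8.53e-04). It passed whichever mouse was left out and without 3-month mice (0.0257, edgeR adjusted p = 0.0449). It did not pass in females alone (0.0205, adjusted p = 0.287) or males of 3 to 21 months (0.0213, adjusted p = 0.0638), by edgeR's test. Set against 3 months, 21 months (0.42 log2 units) and 28 months (0.45) passed, the latter in none of 7 fits that left out mouse 21, 33, 41, 45, 53, 57 or 59. The 28-month call was also lost with no filter on low counts (edgeR adjusted p = 0.0619) and by DESeq2 (adjusted p = 0.0954). Both were lost in males alone (edgeR adjusted p = 0.129 at 21 months and 0.0980 at 28). Against the other 14 regions the cerebellar slope was higher by 0.0206 and did not pass (edgeR adjusted p = 0.0590), but it passed narrowly with the mouse as a replicate block (0.0208, edgeR adjusted p = 0.0481). In the same libraries 6 of 7 microglia genes rose, with sums of 139 to 192 CPM at 3 months and 219 to 300 at 28 months. Cdkn2c had r = -0.47 with microglia and -0.51 with mature oligodendrocytes (n = 58), of which 1 of 8 (Cldn11) fell. The microglia and Cdkn2c rose over the same ages but were opposed between libraries, and their relation to the slope was not tested.

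Cdkn2b, next to Cdkn2a on chromosome 4, had slopes from -0.0181 to 0.0263 log2 units per month in the 11 regions tested, and 0 passed by edgeR's test. A single later age passed: in the corpus callosum, 0.251 to 1.88 CPM at 3 months (median 0.647) and 0.415 to 2.99 at 18 months (median 1.33), with overlap and a difference of 1.15 log2 units (SE 0.31, edgeR adjusted p = 0.0160). In males alone it was 0.80 and did not pass (edgeR adjusted p = 0.699). Cdkn2d, the most abundant member, had slopes from -0.0067 to 0.0038 in 15 regions, and 0 passed by edgeR's test. Its 1 called age was 28 months in the medulla, with 62.7, 63.2 and 65.4 CPM against 66.8 to 83.9 at 3 months (median 76.9), without overlap and lower by -0.29 log2 units (SE 0.090, edgeR adjusted p = 0.0140), a call lost without mouse 57 or 58. Over the mice, neither Cdkn2b (0.0045 log2 units per month, adjusted p = 0.365), Cdkn2c (3.88e-04, adjusted p = 0.925), Cdkn2d (-0.0011, adjusted p = 0.248) nor Cdkn1c (0.0023, adjusted p = 0.705) passed by limma. The genes most like Cdkn2d were Wbp2 (r = 0.59), Cfl1 (0.58), an actin-severing protein, Tmem222 (0.57), Eif5a (0.57), a translation factor, and Psmd7 (0.56), a proteasome subunit.

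The partners and upstream genes of the inhibitors were counted from lists, as pairs of gene and region, against the 5.1% lower and 6.37% higher of all genes. The kinases and cyclins of the INK4 proteins (Ccnd1, Ccnd2, Ccnd3, Cdk4 and Cdk6) had 13 lower and 2 higher of 75 pairs (17.3% and 2.67%). Ccnd2, a D cyclin of precursors, gave 8 of the 13, in the subventricular zone, olfactory bulb, caudate putamen, corpus callosum, hypothalamus, thalamus, medulla and motor cortex. It fell over the mice by 0.0180 log2 units per month (SE 0.0016, limma adjusted p = 1.28e-14). Ccnd1 fell in 2 regions and rose in 2, and Cdk4 fell in 2. CDK2 with the E and A cyclins, the partners of the Cip/Kip proteins, had 5 lower and 0 higher of 69 pairs by edgeR's test (Ccna2 and Ccne1 2 each, Ccne2 1). The RB family and E2F genes, downstream of the kinases, had 8 lower and 4 higher of 162, with E2f6 lower in 4, E2f3 lower in 2 and Tfdp2 higher in 2 regions.

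For p53 itself and its regulators, which act upstream of Cdkn1a, 1 of 105 pairs was lower (Mdm2 in the cerebellum) and 2 were higher (Atr, a DNA damage kinase), and Chek1 had 0 calls in 15 regions by edgeR's test. The p53 target genes other than Cdkn1a had 15 lower and 10 higher of 332 pairs (4.52% and 3.01%), both shares below those of all genes. Zmat3 fell in 6 of them and Sesn1 in 3, whereas Rrm2b rose in 4. Glucocorticoid response genes had 55 lower and 6 higher of 270 (20.4% and 2.22%): Tsc22d3 fell in 11 regions, Klf9 in 8 and Ddit4 in 7, with slopes over the mice of -0.0159 (SE 0.0034, limma adjusted p = 1.06e-04), -0.0080 (limma adjusted p = 1.57e-05) and -0.0122 (limma adjusted p = 4.13e-04). Circadian clock genes had 16 lower and 47 higher of 240 (6.67% and 19.6%), with Dbp higher in 10 and Ciart in 8 regions and Arntl lower in 9. No tissue collection hour was used here.

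The genes that govern turnover of p27 and the FOXO factors had 9 lower and 3 higher of 151 pairs, 5 of them Akt2 and 2 Cks1b. The list of Polycomb genes that act on the Ink4a locus had 36 lower and 11 higher of 240 pairs (15% and 4.58%). Cbx6 fell in 11 regions and Cbx8 in 8, and Cbx7 rose in 6. Not all genes of this list keep the locus silent, since it includes Kdm6b, a histone demethylase gene. Secreted and other senescence-linked genes had 12 lower and 79 higher of 334 (3.59% and 23.7%). The chemokine genes Ccl5, in 10 regions, and Ccl3 and Cxcl10, in 9 each, led them and rose over the mice by 0.0666, 0.0772 and 0.0483 log2 units per month. The markers of microglia, cells that express many chemokines, were higher in 68 of 105 pairs (64.8%) in the same libraries, and their part in this count was not tested. Genes of S and M phase had 42 lower and 14 higher of 245 (17.1% and 5.71%), with Rrm2 and Top2a lower in 5 regions each, both in the subventricular zone and corpus callosum, and Mcm3 higher in 6. The lists were chosen with earlier results of these data known, and their counts describe these genes only.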

How the data were processed

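The deposited values are counts: the authors deposited whole reads per gene for each library. Homogenized tissue gave RNA by RNeasy kits, per the labels' protocols; cDNA was made by Smart-Seq2 and libraries by Nextera XT, without strand. Per the submitters' processing notes, Trim Galore 0.3.7, STAR 2.5.3a, DESeq2 and GRCm38 were used; the counter and annotation are not given in the sources used here, and gene coordinates were read from the GENCODE vM21 annotation supplied with GRCm38. Smart-Seq2 amplifies cDNA without molecular identifiers, so counting limits cover counting error only.

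Counts were scaled by TMM and tested with edgeR 4.0.16 (R 4.3.3) in each region, and mouse means of log2 CPM (prior count 2) with limma 3.58.1; Benjamini-Hochberg adjusted p below 0.05 was called. Levels of neighbouring regions and Cdkn2a were tested by permutation (100000 resamples; numpy 2.4.6, scipy 1.17.1, pandas 2.3.3, Python 3.11.15) and figures drawn with matplotlib 3.10.9. The labels give 1 mouse number to all libraries of a mouse, which pairs them across regions. Fits were tested on simulated data.

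Members and gene lists were chosen with earlier results of these data known. Named genes are the members and the 3 genes of each pathway list called in the same direction in the most regions. They also include the 5 genes most correlated with each member (of 11953 whose mean reached 5 CPM), after subtraction of the mean of each region, sex and age group. Alternatives were RLE scaling, library totals, no filter, DESeq2 1.42.0, subsets of mice, and each mouse left out. Of marker lists counted as pairs of gene and region (lower and higher of tested), microglia gave 2 and 68 of 105, astrocytes 8 and 22 of 105, mature oligodendrocytes 5 and 15 of 120, newly formed oligodendrocytes 21 and 13 of 86, oligodendrocyte precursors 4 and 1 of 75. Neurons gave 9 and 4 of 105, neuroblasts 20 and 1 of 85, choroid plexus epithelium 3 and 10 of 118 and ependymal cells 2 and 6 of 72. Endothelium gave 8 and 5 of 120, pericytes and vascular muscle 13 and 4 of 120, meningeal fibroblasts 6 and 4 of 120, T cells 0 and 2 of 17 and blood 0 and 16 of 75.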

Additional observations from a re-analysis of the deposited data

Results flagged for a closer look

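Single mice stood far from the rest of their group of region, sex and age in 10 of 183 groups examined; chance gives about 1 in 20. For Cdkn1a these were mouse 8, a male of 26 months, with 42.7 CPM in the cerebellum, and mouse 37, a 3-month female, with 8.11 CPM in the posterior hippocampus. Further ones were mouse 22, a 15-month male, with 23.9 CPM in the hypothalamus, and mouse 46, a 15-month female, with 29.4 CPM in the visual cortex. Mouse 44, a 21-month female, was high in 3 regions, with 19.5 CPM in the posterior hippocampus, 37.7 CPM in the medulla and 28.2 CPM in the pons. Mouse 54, a 15-month female, stood apart in its mean of Cdkn1a over regions, at 0.147 log2 units. For the other members they were mouse 1, a 12-month female, with 11.9 CPM of Cdkn1b in the subventricular zone, and mouse 40, a 21-month female, with 7.85 CPM of Cdkn2c in the cerebellum.

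Effects that differed between groups, each by a test of the difference, all concerned Cdkn1a. Its age slopes were unequal over the 15 regions (F = 4.43, edgeR adjusted p = 3.56e-06), and that of the olfactory bulb was above the mean of the other 14 by 0.0243 log2 units per month (edgeR adjusted p = 0.00247). Slopes were more negative in males than in females by -0.0540 log2 units per month in the cerebellum, by -0.0646 in the anterior hippocampus and by -0.0413 over the mice, in mice of up to 21 months.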

How the results depend on the processing

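Of the values of the called pairs of member and region under other scaling, filters, DESeq2 and subsets of mice, 245 of 312 kept their direction and call, 62 lost the call and 5 turned. With single mice left out, 1366 of 1471 kept it and 105 lost it. The 15 age calls became 1 without 3-month mice and 0 in females alone. For Cdkn1a the 9 became 0 in both, 6 among mice 16 to 56 alone and 7 without the 26- and 28-month mice. For Cdkn1b the 2 became 0 in both and 1 in males alone or in males of 3 to 21 months. For Cdkn1c the 3 became 0 in both, 1 in males alone and 0 in males of 3 to 21 months, and 2 with the choroid plexus covariate, where the choroid plexus was not fitted. For Cdkn2c the 1 became 0 in females alone and in males of 3 to 21 months. In females alone the Cdkn1a slope turned to 2.95e-04 in the cerebellum, 0.00571 in the choroid plexus, 0.00734 in the anterior hippocampus, 0.00221 in the medulla and 0.00629 in the thalamus. Females alone and fits without 3-month mice hold fewer libraries. In males of 3 to 21 months alone, which also hold fewer libraries, all 9 Cdkn1a calls stood. The cause of the losses was not tested. Over the mice, Cdkn1a was 7.61e-04 in females alone, -0.0142 without 3-month mice and -0.0102 on summed counts, and Cdkn1b was 4.25e-04, -0.00263 and -0.00287, and -0.00226 with library totals. The 2 calls over the mice became 1 with library totals and 0 in those other 3 settings. In males alone, calls of later ages were 25 in place of 13 for Cdkn1a, and fewer for each other member with any. The 3 sex calls became 0 in the 12-month mice alone, the 20 differing neighbours in level became 0 in the 3-month mice alone, with at most 10 mice a pair, and the Cdkn2a slope was 2.07e-04 in males alone.

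With single mice left out, age calls numbered 12 to 17 (12 without mouse 17, 25 or 33), those of Cdkn1a 6 (without mouse 25) to 10, Cdkn1b 2 to 3, Cdkn1c 2 to 3 and Cdkn2c 1. Calls of later ages numbered 20 to 33 (only 3-month and 28-month mice were left out), with sex calls 1 to 3 and age by sex calls 0 to 2. Over the mice, the slope of Cdkn1a was -0.0207 to -0.0166, that of Cdkn1b -0.00343 to -0.00222 with 1 to 2 calls, the difference of the Cdkn1a slopes between the sexes -0.0456 to -0.0377, and Cdkn2a 2.83e-04 to 3.72e-04. With the mouse as a replicate block, F for unequal Cdkn1a slopes was 6.42 against 4.43, and no other member's call in that test changed. Of the slopes set against the other 14 regions, the block raised the calls above from 1 to 4 (Cdkn1a in the caudate putamen and corpus callosum and Cdkn2c in the cerebellum were added). Within a region each mouse has 1 library, so no block could be fitted. Reads were fewest for Cdkn2a and Cdkn2b. Subsets chosen after seeing the data were females alone, males of 3 to 21 months, mice without the 3-month group and mice 16 to 36.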
